A study of Saccharomyces cerevisiae with 4 samples.

Results

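The genes of chromosome VI of the budding yeast Saccharomyces cerevisiae are described here as 1 group, because on the BF2B slides they moved together as a chromosome. They were the array probes whose systematic name begins with YFL or YFR, leaving out the ribosomal protein (RPL, RPS), proteasome regulatory (RPN) and autophagy (ATG) genes and HSP12, CMK1, GSY1, GAT1, STE2, PRE4 and AAD6. That gave 123 members of the 136 chromosome VI probes and of the 6388 gene probes on the array. The group was chosen on these same measured log2 ratios, so its ratios on the BF2B slides are a description and carry no test.

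In a yeast systematic name the second letter gives the chromosome, with A for chromosome I and F for chromosome VI. The third letter gives the left (L) or right (R) arm, the number counts open reading frames outward from the centromere, and the last letter gives the strand. Chromosome VI is among the smallest of yeast's chromosomes and carries ACT1, the only actin gene, and TUB2, the only beta-tubulin gene. Yeast genes are mostly transcribed singly, from promoters of their own. In yeast cells that have gained or lost a whole chromosome, transcript levels of its genes are known to scale roughly with the number of its copies. The labels do not give the number of chromosome copies in these strains, and it was not tested here.

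The series compared strains after salt treatment with 0.6 mol/L NaCl for 45 min, on 4 oligonucleotide slides that each held a strain in one dye and BF2 in the other. BDF1 and BDF2 encode related proteins whose bromodomains recognise acetylated histones. The SIR2 product is a histone deacetylase of silent chromatin. BF2B was bdf1∆bdf2∆[BDF2 L][pYX242]. BF2S was bdf1∆bdf2∆[BDF2 L][SIR2 H], where the labels do not explain L and H. BF2, on every slide, was bdf1∆[pYX242][pRS316]. All 3 strains therefore lacked BDF1 and all were salt-treated, so no slide holds an unstressed or BDF1-carrying sample. Each strain was compared with BF2 on 2 slides with the dyes exchanged. Such a dye swap counts as 1 replicate, so the SDs below measure the spread between 2 hybridisations and no p-value is given.

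Each probe was printed as 3 spots on each slide. Signals below are spot medians minus local background in scanner units, averaged over the 3 spots. Ratios are log2 of the strain over BF2 after background correction and loess normalisation, averaged over the 2 slides. A gene counted as above background when at least 2 of its 3 spots exceeded the local background mean by 2 SD in at least 1 channel on both slides. By that rule 74 of the 123 members were measured on the BF2B slides, and 49 were not. Of the 74, 33 were above background in both channels on both slides. On both slides, 3 were above background for BF2B and not for BF2, and 23 were so for BF2 and not for BF2B. The remaining 15 had neither channel above background on both slides. A gene could thus enter through BF2 alone with its BF2B signal at background, which favours ratios below 0 in such members. The same rule was used for every chromosome.

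Most measured chromosome VI genes gave less signal in BF2B than in BF2. Their median log2 BF2B over BF2 was -0.74, with slide medians of -0.68 and -0.78, which corresponds to 0.598-fold of the BF2 level. The quartiles of the members were -1.0 and -0.42. On both slides 61 of 74 members were below 0, or 82.4%, where 32.0% of all 4660 genes above background were below 0 on both. A further 9 members were above 0 on both slides, where 31.6% of all genes were, and the other 4 changed sign between slides. In bulk RNA, fewer cells holding a transcript and less transcript per cell cannot be told apart, so a fold below 1 does not give the number of cells concerned.

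The members spanned -1.47 to 1.39. At a threshold of over 2-fold, passed one way by each of the 2 slides, 10 members (13.5%) were lower in BF2B, and 1.61% of all genes above background were. One member was higher, YFL065C, where 1.37% of all genes were. The chromosome's shift is thus made of many moderate ratios, most of them short of 2-fold. With the 13 left-out genes added, 87 chromosome VI genes above background had a median of -0.75, and 72 of them were below 0 on both slides. These 87 genes are 1.87% of all genes above background and held 16 of the 75 genes lower by over 2-fold, or 21.3% of them.

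Set beside the other chromosomes, chromosome VI lay at one edge. The other chromosomes except I had medians from -0.08 for chromosome IX to 0.05 for chromosome V, over 14 chromosomes. Between 24.2% (chromosome V) and 39.9% (chromosome IX) of their measured genes were below 0 on both slides. The share lower by over 2-fold was 0 to 2.20% on these chromosomes, with the highest on chromosome VIII. All 4499 measured genes outside chromosomes I and VI had a median of -0.01. The interquartile range on those 14 chromosomes was 0.30 to 0.45, so the distance from the chromosome VI median to the nearest of their medians exceeded that range on each of them.

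Chromosome I lay at the opposite edge. Its 74 measured genes had a median of 0.48, with slide medians of 0.50 and 0.53. On both slides 62 of them (83.8%) were above 0, where 31.6% of all genes were, and 4 (5.41%) were below 0. By the over 2-fold threshold 3 were higher and 0 were lower in BF2B.

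**Figure D1:**
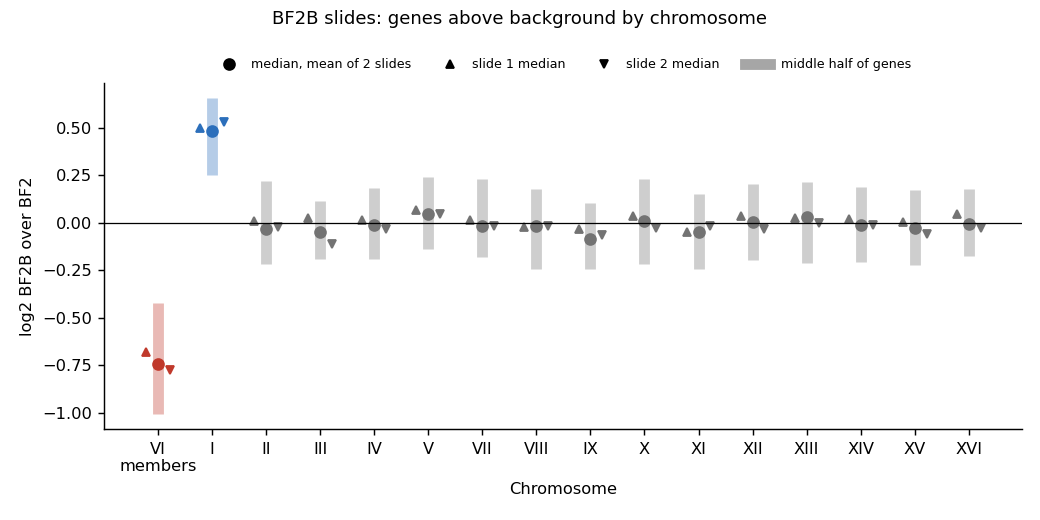
Log2 BF2B over BF2 of measured genes by chromosome, with circles at the median over the mean of 2 slides, triangles at each slide's median and bars between the quartiles. Chromosome VI sits at -0.74 and chromosome I at 0.48, while the other 14 chromosomes lie between -0.08 and 0.05.

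Both arms of chromosome VI were low. The 46 measured left-arm members had a median of -0.74, with slide medians of -0.61 and -0.81, and 34 were below 0 on both slides. The 28 measured right-arm members had a median of -0.77, with slide medians of -0.74 and -0.72, and 27 were below 0 on both. The medians of the 28 arms of the chromosomes other than I and VI ran from -0.09 (left arm of IX) to 0.13 (left arm of VIII). Members on the W strand had a median of -0.66 (n = 34) and those on the C strand one of -0.83 (n = 40), so genes read in either direction were low.

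The members kept low values along most of the chromosome. In stretches of 10 gene numbers, YFL001 to YFL010 had a median of -0.74 over 11 measured members, YFL011 to YFL020 had -0.66 over 5 and YFL021 to YFL030 had -0.73 over 6. Further out, YFL031 to YFL040 had a median of -0.97 over 8 members and YFL041 to YFL050 had -0.96 over 7, and all 15 of these members were below 0 on both slides. On the right arm, the medians over 4 to 6 measured members were -0.71 for YFR001 to YFR010, -0.72 for YFR011 to YFR020, -0.88 for YFR021 to YFR030, -0.78 for YFR031 to YFR040 and -0.93 for YFR041 to YFR050. All 25 measured members in those right-arm stretches were below 0 on both slides.

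Low values ended near both chromosome ends. YFL051 to YFL060 had a median of -0.15 over 3 measured members, with 2 below 0 on both slides. YFL061 to YFL068, the left end, had a median of 0.49 over 6 measured members, which ranged from 0.15 to 1.39, and 0 of them were below 0 on both slides. YFR051 to YFR057, the right end, had a median of -0.20 over 3 members that ranged from -1.31 (RET2) to 0.46 (HXK1).

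From YFL049W to YFR052W, a span whose limits were chosen after the values were seen, 58 of 63 measured members were below 0 on both slides and the median was -0.88. Outside repeated families, 58 of 60 were. The other 2 were EPL1, a subunit of the NuA4 histone acetyltransferase, and GNA1, which makes N-acetylglucosamine 6-phosphate, and each changed sign between slides. EPL1 had log2 ratios of 0.10 and -0.95, and GNA1 had 0.21 and -1.44.

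**Figure D2:**
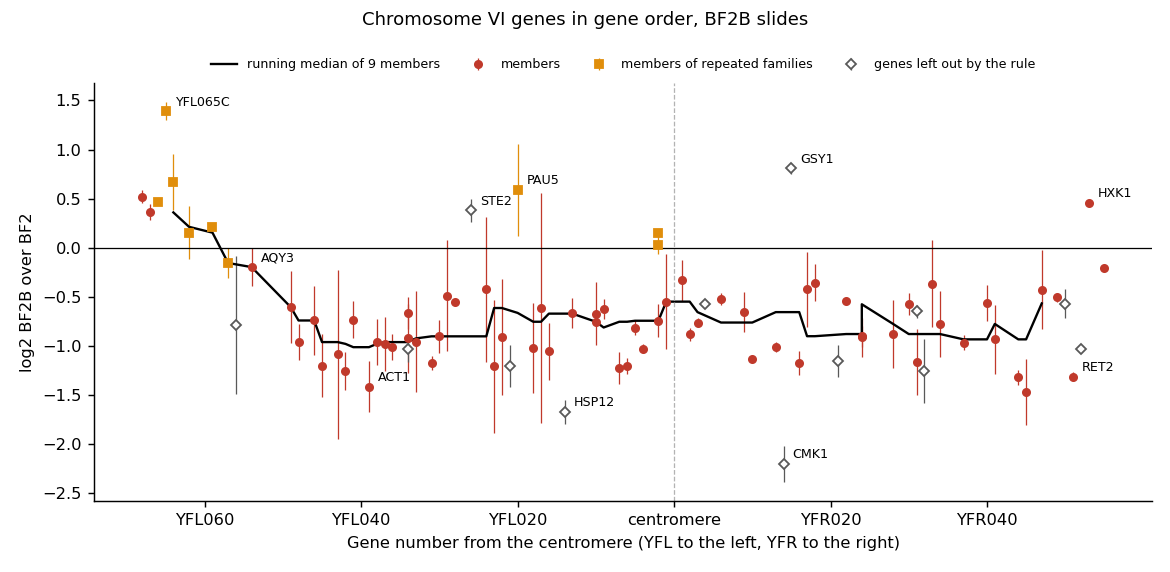
Log2 BF2B over BF2 of each measured chromosome VI gene against its number along the chromosome, with the left arm to the left; error bars are the SD of 2 slides, the line is a running median of 9 genes, open diamonds are genes left out of the group and squares mark repeated families. The line stays below 0 between YFL049W and YFR052W, and the left-end members lie above 0.

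Among the members that were not low, most belong to families with close copies on other chromosomes. Of 13 members marked as such families after their values were seen, 9 were measured. These 9 had a median of 0.21, with 1 below 0 and 6 above 0 on both slides. They include YFL064C, YFL065C and YFL066C, which belong to the subtelomeric Y' element. They also include SNZ3, PAU5, COS4, the aryl-alcohol dehydrogenase remnant YFL057C and the Ty2 reading frames YFL002W-A and YFL002W-B. A probe for such a gene can take signal from its copies elsewhere, and the files do not give the probes' specificity. The 65 measured members outside these families had a median of -0.81, and 60 of them (92.3%) were below 0 on both slides.

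YFL065C had signals of 1862 and 1879 units in BF2B, against 519.5 and 796.5 units in BF2. BF2B was the higher on both slides, and the ratio was 1.39 ± 0.09 (SD over 2 slides), or 2.62-fold. Its BF2 channel was above background on 1 slide only, so the size of that ratio rests on dim BF2 spots. Its neighbours YFL064C and YFL066C had ratios of 0.67 ± 0.29 and 0.46 ± 0.01, under 2-fold. The BF2 channel of YFL064C was likewise above background on 1 slide only. The Ty2 reading frames lie among low genes near the centromere and had ratios of 0.03 ± 0.10 (YFL002W-A) and 0.15 ± 0.03 (YFL002W-B). PAU5, of the seripauperin cell wall family, lies in the inner left arm and had a ratio of 0.59 ± 0.47. Each of its channels was above background on 1 slide only. YFL057C had -0.15 ± 0.15 and COS4 had 0.15 ± 0.27. SNZ3, of the vitamin B6 synthesis family, had a ratio of 0.21, with each channel above background on 1 slide only. These values stayed near or above 0 whether the gene lay at the chromosome end or among low neighbours.

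The 3 other members above 0 on both slides were YFL067W, YFL068W and HXK1. YFL067W and YFL068W were not marked as repeated families, but by number both lie outward of YFL066C of the Y' element. Whether their probes take signal from copies elsewhere was not tested. YFL068W, the outermost left-arm probe, had signals of 8203 and 8589 units in BF2B, against 5227 and 7431 units in BF2, with a ratio of 0.52 ± 0.06. YFL067W, next to it, had 0.36 ± 0.08. HXK1 encodes hexokinase 1, which phosphorylates glucose and fructose, and lies near the right end. It had signals of 4182 and 5325 units in BF2B, against 3001 and 4455 units in BF2, with a ratio of 0.46 ± 0.03. Next to HXK1 in the measured set lay IRC7, a cysteine desulfhydrase gene, at -0.20 ± 0.00. Each channel of IRC7 was above background on 1 slide only, so its ratio rests on dim spots. The 2 measured genes beyond YFR052W thus lay one on each side of 0, with IRC7 uncertain.

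Counting the outermost 6 open reading frames of each arm, 7 chromosome VI members were measured and had a median of 0.46. The same positions on the other chromosomes, with chromosome I included, held 87 measured genes with a median of 0.34. Of these 87, 57 (65.5%) were above 0 on both slides, where 31.6% of all genes were, and 17 (19.5%) were below 0 on both. Most measured genes next to the chromosome ends were thus above 0 on the other chromosomes as well, but not all. The 67 measured members inside those positions had a median of -0.78, with 60 (89.6%) below 0 on both slides.

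The members serve unrelated functions, and all 7 lists of genes grouped by role had medians below 0. The lists hold 83 of the members. They were drawn up with earlier results of these data known, so their counts are not independent evidence.

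The list of cytoskeleton, secretion and membrane traffic genes had 9 of 15 members measured. All 9 were below 0 on both slides, 3 were lower by over 2-fold, and the median was -0.98. ACT1, which encodes actin, had signals of 1959 and 2497 units in BF2B, against 4279 and 9288 units in BF2. Both BF2B signals were under both BF2 signals, and the ratio was -1.42 ± 0.26, which is 2.67-fold higher in BF2. RET2, a coatomer subunit of vesicles that return proteins from the Golgi to the endoplasmic reticulum, had 660.7 and 578.3 units in BF2B, against 1779 and 1928 units in BF2. Its ratio of -1.31 ± 0.04 hardly varied between the slides. SEC53, the phosphomannomutase that supplies mannose for glycosylation, had a ratio of -1.20 ± 0.32, with 1708 and 1262 units in BF2B, against 3432 and 4235 units in BF2. LAM5, a sterol transfer protein of membrane contact sites, had a ratio of -1.25 ± 0.19 and was above background in the BF2B channel on 1 slide only, as was RET2.

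TUB2 encodes beta-tubulin, the partner of alpha-tubulin in microtubules. Its signals were 1649.8 and 1865 units in BF2B, against 3829.7 and 3835 units in BF2, and its ratio of -0.98 ± 0.27 missed the 2-fold threshold on the second slide, with -0.78. YPT1, the Rab GTPase of early secretion, had a ratio of -0.96 ± 0.24. SEC4, the Rab GTPase of secretory vesicles at the plasma membrane, was the highest of the list at -0.81 ± 0.08, with 1062 and 1091 units in BF2B, against 1981 and 2277 units in BF2. EMP47, a cargo receptor of the early secretory pathway, had -0.96 ± 0.18, and LSB3, an actin patch protein, had -0.90 ± 0.10. The 9 ratios of this list spanned a narrow range below 0.

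Protein folding and turnover had the lowest median of the 7 lists, at -1.09 over 6 of 7 members measured, with 3 of the 6 lower by over 2-fold. DUG1, a peptidase that degrades Cys-Gly in glutathione turnover, had 1435 and 1369.7 units in BF2B, against 3595 and 4394 units in BF2. The ratio was -1.32 ± 0.08, or 2.50-fold higher in BF2. UBP6, the ubiquitin protease of the proteasome, had a ratio of -1.13 ± 0.01, with 1502 and 1954 units in BF2B, against 3410 and 5149 units in BF2. BLM10, a proteasome activator, had a ratio of -1.22 ± 0.16, with the BF2B channel above background on 1 slide. MDJ1, a mitochondrial DnaJ chaperone, had -1.06 ± 0.29 and ERJ5, an endoplasmic reticulum J-protein, had -0.93 ± 0.35. ROG3, an arrestin-like ubiquitin ligase adaptor, was the highest of the list at -0.54 ± 0.00. Like BLM10, ERJ5 and ROG3 were above background in the BF2B channel on 1 slide only.

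Cell cycle and chromosome structure genes had 8 of 14 members measured, with a median of -0.82. All 8 were below 0 on both slides and 0 were lower by over 2-fold on both. SMC2, a condensin subunit, was the lowest at -1.16 ± 0.34. CDC14, the phosphatase of mitotic exit, had -0.88 ± 0.35, and MOB2, which activates the kinase Cbk1, had -0.92 ± 0.35. CDC4, an F-box protein of the SCF ubiquitin ligase, had -0.62 ± 0.10. CAK1, the kinase that activates Cdc28, was the highest at -0.49 ± 0.57, with slide values of -0.08 and -0.89. Each gene named from this list was above background in the BF2B channel on 1 slide only.

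Chromatin and transcription genes had 9 of 11 members measured, with a median of -0.78 and 8 below 0 on both slides. HAC1, the transcription factor of the unfolded protein response, had 1914 and 2006 units in BF2B, against 4599 and 5273 units in BF2. Its ratio of -1.17 ± 0.07 is 2.26-fold higher in BF2, and it was the 1 gene of this list past the threshold. RPO41, the mitochondrial RNA polymerase, had -1.01 ± 0.13. IOC3, a subunit of an ISW1 chromatin remodeller, had -1.01 ± 0.05, and RSC8, a subunit of the RSC remodeller, had -0.96 ± 0.08. PHO4, the activator of phosphate-starvation genes, had -0.78 ± 0.33. EPL1 was the highest of the list at -0.42 ± 0.74, a spread wider than its mean. IOC3 and EPL1 were above background in the BF2B channel on 1 slide only.

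RNA processing, ribosome assembly and translation had 7 of 10 members measured, with a median of -0.74. All 7 were below 0 on both slides and 0 were lower by over 2-fold on both. BUD27, a prefoldin-like protein of RNA polymerase assembly, was the lowest at -1.21 ± 0.67. NIC96, a nuclear pore protein, had -0.88 ± 0.06. DEG1, a tRNA pseudouridine synthase gene next to the centromere, had -0.55 ± 0.48. LOC1, which acts in ribosome assembly and ASH1 mRNA localisation, was the highest at -0.33 ± 0.21. BUD27, NIC96 and DEG1 were above background in the BF2B channel on 1 slide only.

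Of the 7 lists, that of metabolic enzymes and mitochondrial proteins had the median nearest to 0. It had 12 of 18 members measured and a median of -0.47. In it, 9 were below 0 on both slides and 0 were past the threshold in either direction. LPD1, the dihydrolipoamide dehydrogenase shared by several mitochondrial enzyme complexes, was the lowest at -1.02 ± 0.46. MET10, a subunit of sulfite reductase, had -0.58 ± 0.11, and QCR6, a subunit of respiratory complex III, had -0.37 ± 0.44. HXK1 was the highest, and SNZ3, also above 0, belongs to this list too. MET10 and SNZ3 were above background in the BF2B channel on 1 slide only. MDJ1 (-1.06) and RPO41 (-1.01) were placed in other lists and MRX20 (-1.47) in none, so this median does not cover all mitochondrial proteins.

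Transporters, channels and nutrient sensing had 4 of 8 members measured, and all 4 were below 0 on both slides, with a median of -0.70. VTC2, of the vacuolar complex that makes polyphosphate, was the lowest at -1.03 ± 0.05. FET5, a multicopper oxidase of iron transport, had -0.73 ± 0.19. AQY3, an aquaporin-like protein, was the highest at -0.20 ± 0.19. VTC2 and FET5 were above background in the BF2B channel on 1 slide only.

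**Figure D3:**
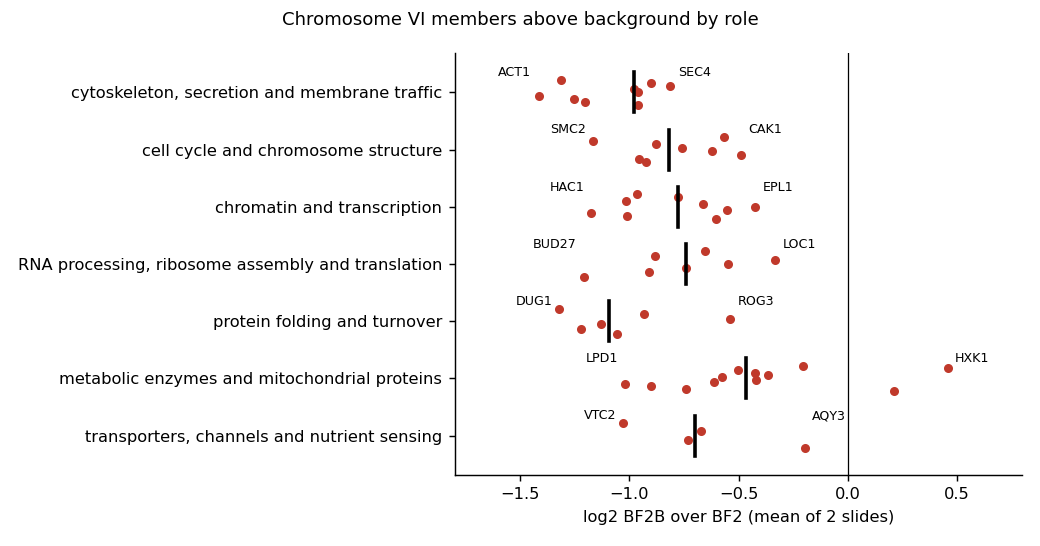
Log2 BF2B over BF2 of the measured members of each role list, 1 point a gene at the mean of 2 slides, with a bar at the list's median and the lowest and highest members named. The 7 medians lie between -1.09 and -0.47, and HXK1 and SNZ3 stand above 0 in the metabolic list.

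Outside the lists, 3 further members were lower by over 2-fold. MRX20 (YFR045W), a mitochondrial membrane protein, had the lowest ratio of all members, -1.47 ± 0.33, with 267.5 and 120.5 units in BF2B, against 697 and 950.5 units in BF2. AIP5 (YFR016C), which takes part in actin assembly, had -1.17 ± 0.12, with 344 and 388.7 units in BF2B, against 887.3 and 1199.7 units in BF2. Both were above background in the BF2B channel on 1 slide only, so their ratios rest on dim BF2B spots. The probe YFL006W had -1.20 ± 0.08, with 841.2 and 834.5 units in BF2B, against 1934 and 2588 units in BF2.

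The array holds separate probes for several reading frames that the current gene table joins into 1 gene, and these give repeated measurements. YFL006W is now part of BLM10, and the 2 probes had ratios of -1.20 ± 0.08 and -1.22 ± 0.16. YFR024C is part of LSB3, and the 2 probes had -0.91 ± 0.20 and -0.90 ± 0.10. YFL043C is part of LAM5, and the 2 probes had -1.09 ± 0.86 and -1.25 ± 0.19. In these pairs the probes differed by less than the larger of their SDs. YFL057C is now part of AAD6, which the rule left out, and the pair had -0.15 for YFL057C and -0.78 for AAD6, whose slide values were -0.29 and -1.28.

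**Figure D4:**
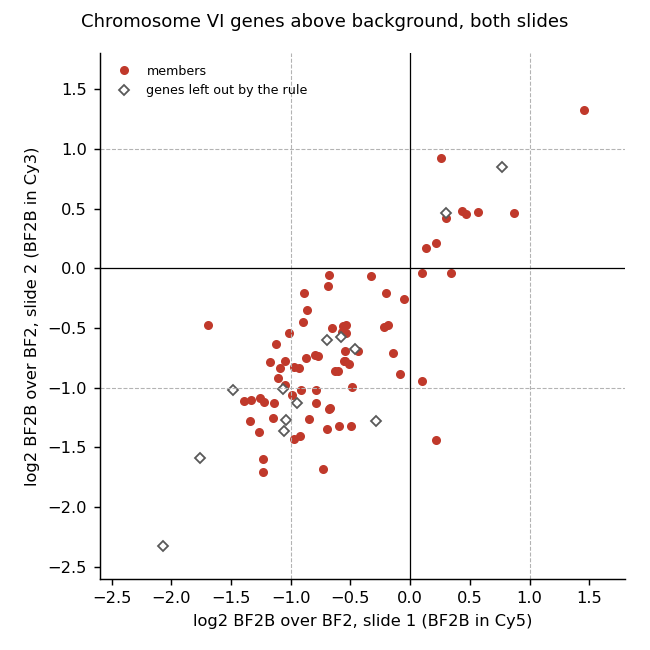
Log2 BF2B over BF2 on slide 2 (BF2B in Cy3) against slide 1 (BF2B in Cy5) for measured chromosome VI genes. Filled points are members, and open diamonds are the 13 chromosome VI genes left out of the group. The members gather where both axes are below 0, with 61 of 74 there.

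The median was below 0 among dim and bright members alike. Sorted by mean signal, the dimmest 25 members (168 to 679 units) had a median of -0.62, the middle 24 (685 to 1549 units) one of -0.89 and the brightest 25 (1603 to 29512 units) one of -0.66. The members' summed signal was 1.17% and 1.14% of all gene signal in the BF2B channel, against 1.55% and 1.55% in the BF2 channel. No member above background had a saturated spot.

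Chromosome VI probes were printed close together, in 24 of the 48 blocks of a slide, with 121 of 123 members in rows 7 to 9. Position on the slide therefore moves with the chromosome. Genes of other chromosomes in rows 7 to 9 of the same blocks (n = 266) had a median of 0.01, and 48.1% were below 0. Compared with genes of other chromosomes in the same block and within 1 row, 63 of 74 members were lower, and the median difference was -0.78. Normalised block by block, the members' median was -0.73. Of the 74 members, 58 had all 6 of their spots below 0. The same share over all genes is not given here, and the 6 spots repeat 1 probe on 1 RNA pair.

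A further ACT1 probe was printed as a control, with 144 spots a slide spread over all 48 blocks, and it was not used to choose the group. It reads the same gene on the same slides as the ACT1 member. Its values therefore repeat that member and are not independent of the choice. Its median ratios were -1.22 and -1.33, for a mean of -1.28 ± 0.08 (SD over 2 slides). The median signals were 3836 and 4311 units in BF2B, against 8844 and 13130 units in BF2. The block medians lay between -1.55 and -0.84 on slide 1 and between -1.64 and -0.87 on slide 2, so ACT1 was below 0 in all 48 blocks on each slide. The control probe for RPL32, a ribosomal protein gene on chromosome II, had -0.17 and -0.16. The control probe for SSA4, a stress-induced Hsp70 gene on chromosome V, had -0.89 and -0.85, so 1 of the control genes off chromosome VI was low too. For TUB4, on chromosome XII, the control probe had -0.60 and 0.45. On each slide 0 of its 144 spots were above background in either channel, so its ratios are not read.

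The 13 genes left out by the rule had their own ratios around the chromosome's shift. Their median was -1.03, with 11 of 13 below 0 on both slides and 6 lower by over 2-fold. CMK1, a calmodulin-dependent kinase, was at -2.20, with its BF2B channel above background on 1 slide only. HSP12, a small stress protein, was at -1.67, but it had 3 saturated spots and a BF2 signal of 65461 units on slide 2, at the scanner's limit. The sizes of both ratios are therefore uncertain. RPL29 was at -1.25, GAT1 at -1.21, ATG18 at -1.15, and RPN12 and RPL22B at -1.03. AAD6 was at -0.78, RPL2A at -0.65, RPN11 at -0.58 and PRE4 at -0.57, and PRE4 was the farthest of these 4 from the members' median, by 0.17. GSY1, a glycogen synthase, was at 0.81 and STE2, the alpha-factor receptor, at 0.38, which put them 1.55 and 1.12 above it.

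The BF2S slides, which compare bdf1∆bdf2∆[BDF2 L][SIR2 H] with BF2, showed no such common shift, but they measured these genes poorly. Spots that carried no probe had median signals of 6049 and 5325 units for BF2S and of 1709 and 1768 units for BF2. On the BF2B slides they had 29 and 110 units for BF2B and 52 and 70.5 units for BF2. Of the 123 members, 121 and 122 were dimmer than the blank median in the BF2S channel of the 2 slides. None of the 123 exceeded the 95th percentile of blank spots in both channels.

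On those slides 97 members were above local background, and 38 were so in both channels on both slides. Their median log2 BF2S over BF2 was 0.07, with quartiles of -1.03 and 0.85, and it changed sign with the normalisation: it was -0.07 after median centring and -0.15 after loess by block. The slide medians were 0.05 and -0.07. At over 2-fold on both slides, 22 members (22.7%) were lower, and 25.1% of all genes were. In the other direction 17 members (17.5%) were higher, and 19.3% of all genes were. In 11 of the 22 lower members the BF2S channel was at background on both slides. The other chromosomes had medians from -0.69 (XIII) to 1.02 (VIII), a spread far wider than on the BF2B slides, with chromosome I at -0.05.

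**Figure D5:**
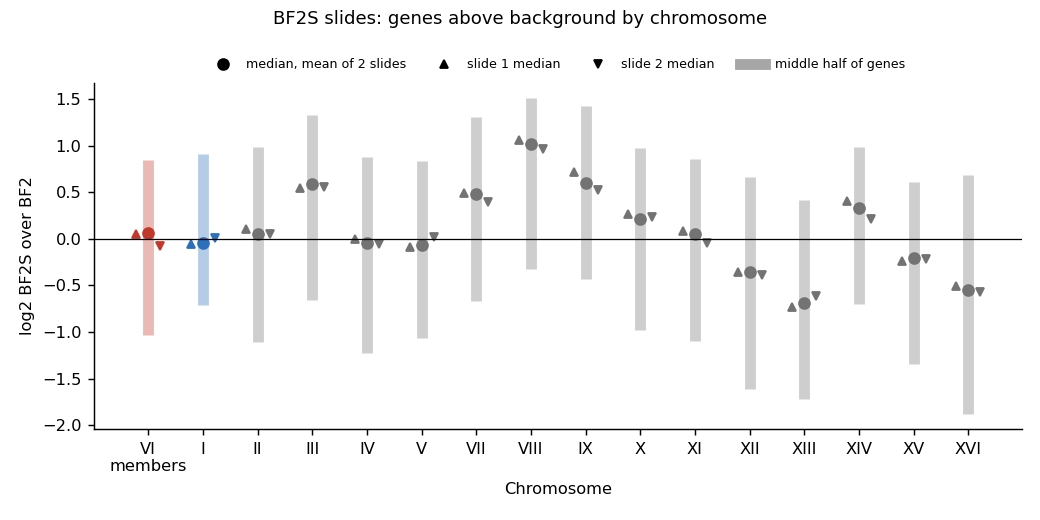
Log2 BF2S over BF2 of measured genes by chromosome, drawn as for BF2B with circles at medians, triangles at slide medians and bars between the quartiles. Chromosome VI lies at 0.07 among medians that run from -0.69 to 1.02.

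On the BF2S slides the arms of chromosome VI had a median of -0.30 over 57 left-arm members and of 0.48 over 40 right-arm members. ACT1 itself was measured unequally there by its 2 probes. The gene probe had 1557 and 1588 units in BF2S, against 5296 and 7189 units in BF2, and a ratio of -1.12 ± 0.84. The control probe had 0 of 144 spots above background for BF2S on each slide, while all 144 were above it for BF2.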

How the data were processed

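Members and lists were chosen with earlier results of these data known. RNA was amplified (Eberwine method), labelled with Cy3 and Cy5 and hybridised to 4 two-colour slides, per the labels' protocols. The deposited scanner files hold spot and background intensity in each channel, not normalised, per the file headers. The deposited value table holds log2 ratios by the authors: their sign runs as strain over BF2, their column medians are 0.20, -0.29, 0.23 and -0.80, and their scaling is not given in the sources used here. Marked spots, whose mark is not explained in the sources used here, were kept.

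From the intensities, limma 3.58.1 in R 4.3.3 applied normexp background correction (offset 50) and one loess curve a slide fitted on gene spots. Log2 ratios were averaged over a probe's 3 spots and turned to strain over BF2. Gene spots on the BF2B slides had median signals of 545 and 549.5 in BF2B and 463.8 and 667 in BF2. The number of slides limits the precision. No test was run, since each comparison is 1 dye-swapped RNA pair. A fold call needed over 2-fold in one direction on both slides.

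Probes were named from the files. Of the members, 114 matched by systematic name in the RefSeq gene table (assembly R64) and 4 more as an older name of a listed gene. No sequence is printed. Named genes were all called members, the 8 lowest and 8 highest, the lowest and highest of each role list, the 2 nearest each end of each arm and all left-out genes. Other members are examples of their lists, chosen after their values were seen. Alternatives covered background correction, normalisation, spot summary, filters, thresholds, slides and membership.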

Additional observations from a re-analysis of the deposited data

Results flagged for a closer look

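All members are listed here that had one sign on both BF2B slides and the opposite sign on both BF2S slides, with each channel above background on at least 1 slide of each comparison. The difference between the comparisons was not tested, both share the BF2 strain, and blank spots on the BF2S slides were brighter than most of them in the BF2S channel.

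Of these members, 17 were below 0 on both BF2B slides and above 0 on both BF2S slides. On the BF2S slides, 45.4% of measured members and 46.9% of all genes above background were above 0 on both. The share of all genes with such opposite signs is not given here, so the count is not a result about the members. CAK1 had a log2 BF2S over BF2 of 4.52 ± 0.24 (SD over 2 slides), against -0.49 ± 0.57 for BF2B over BF2. Its signals were 17323 and 11847 units in BF2S and 476.5 and 713.7 units in BF2 on the BF2S slides. Those BF2 signals were under the BF2 blank medians of 1709 and 1768 units, so the size of that ratio is uncertain. PHO4 had 2.26 ± 0.27 in BF2S and -0.78 ± 0.33 in BF2B. The other 15 were under 1 in BF2S. YFL057C had 0.91 in BF2S and -0.15 in BF2B, AUA1 had 0.84 and -0.67 in that order of strains, MRX20 had 0.80 and -1.47, and IRC7 had 0.71 and -0.20. IOC3 had 0.63 in BF2S and -1.01 in BF2B, FMP32 had 0.62 and -0.74, YPI1 had 0.60 and -0.76, KGD4 had 0.56 and -0.50, and LSB3 had 0.53 and -0.90. YFL006W had 0.43 in BF2S and -1.20 in BF2B, LOC1 had 0.36 and -0.33, IES1 had 0.29 and -0.66, SAP155 had 0.28 and -0.57, MOB2 had 0.20 and -0.92, and MIL1 had 0.15 and -0.66.

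The reverse pattern, above 0 on both BF2B slides and below 0 on both BF2S slides, was found in 4 members. Its share over all genes is not given here either. On the BF2S slides, 46.4% of measured members and 45.0% of all genes above background were below 0 on both. YFL002W-B, a Ty2 reading frame, had a log2 ratio over BF2 of -2.77 in BF2S and 0.15 in BF2B. HXK1 had -1.89 in BF2S and 0.46 in BF2B. YFL067W had -1.62 in BF2S and 0.36 in BF2B, and YFL066C had -0.30 in BF2S and 0.46 in BF2B.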

How the results depend on the processing

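The members' median log2 BF2B over BF2 (-0.74) stayed below 0 under every alternative run. It was -0.64 with no background subtraction, -0.98 in the authors' deposited value table, -0.60 with no filter on dim genes, -0.81 without repeated families (added after the data were seen) and -0.83 to -0.68 with 1 slide left out. The count lower by over 2-fold (10) moved more. It was 6 with no background subtraction, 16 in the deposited table, 6 with marked spots left out, 5 with both channels above background, 16 with all chromosome VI probes, 35 at 1.5-fold, 0 at 3-fold and 18 on slide 1 alone and 33 on slide 2 alone. With both channels above background, 26 of 33 members were below 0 on both slides. The left-arm median (-0.74) was -0.94 in the deposited table, -0.90 without repeated families and -0.86 to -0.60 with 1 slide left out. The right-arm median (-0.77) was -0.67 with no background subtraction, -0.80 with offset 10, -0.72 with loess by block, -1.02 in the deposited table, -0.79 with the median of the spots, -0.74 with marked spots left out, -0.57 with no dim filter, -0.67 with both channels above background, -0.83 without the outermost genes and -0.79 to -0.74 with 1 slide left out. The BF2S median (0.07) was -0.067 with median centring, -0.15 with loess by block, -0.19 in the deposited table, -0.39 with marked spots left out, 0.21 with no dim filter, 0.56 with both channels above background and -0.065 over members in the gene table. The cause of these moves was not tested. Requiring both channels above blank spots left 0 members on the BF2S slides. Of 356 values of 33 named genes under alternatives, 289 moved by less than the spread between slides, 67 moved by more and 0 called values changed sign. For a single gene, leaving out 1 slide always moves the mean by less than that spread. Such values could therefore not count among the 67. EPL1, which was not called, had a mean of -0.42 and was 0.10 on slide 1 alone. No paired analysis was possible because each comparison is 1 RNA pair hybridised in both dye orientations.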
